A study of Mus musculus with 2 samples.

Results

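The genes described here are the 10 that build the signalling part of the T cell receptor (TCR) complex and its first steps, out of 31053 genes counted: Cd3d, Cd3e, Cd3g, Cd247, Fcer1g, Lck, Zap70, Syk, Lat and Lcp2. They were chosen by name, as the CD3 chains, the ζ and FcRγ homodimer chains, the proximal kinases and the first adaptors. Their mRNA was followed in 3 classes of epidermal lymphocytes, gated on unique molecular identifiers (UMIs, each of which marks 1 captured mRNA molecule). Dendritic epidermal T cells (DETCs) had at least 3 UMIs of Trdc and at least 1 of Trdv4, with no UMI of Trac, Cd4, Cd8a or Cd8b1. αβ T cells had at least 1 UMI of Trac and none of Trdv4. Innate lymphoid cells (ILCs) had at least 3 UMIs of Il7r, Rora and Gata3 together, no Trdv4 or Trac, and at most 2 UMIs of Cd3d, Cd3e and Cd3g together. The gates held 3133 DETCs, 197 αβ T cells and 73 ILCs among 4242 cells of the isotype library, and 4146, 213 and 125 among 5961 cells of the anti-Skint1 library.

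Both libraries came from ear epidermis of female wild-type FVB/NJ mice, 8 weeks old, 7 d after an antibody was injected into the skin. One group received isotype control antibody and the other anti-Skint1 antibody, directed at a keratinocyte protein needed for DETC selection. The sort kept viable CD45+ cells without EpCAM or MHC-II on their surface, the labels call the sorted cells DETCs, and there was 1 library per treatment. Each group had an n of 1, which by the study's convention stands for a single mouse. Treatment and library cannot be told apart, cells are not replicates, and no test between treatments was made.

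In a T cell, the antigen-binding TCR chains have almost no cytoplasmic tail and signal through the CD3γ, CD3δ and CD3ε chains and a disulfide-linked homodimer, which is ζ (encoded by Cd247) or, in some γδ T cells and other lymphocytes, FcRγ (encoded by Fcer1g). Each of these chains carries 1 or more immunoreceptor tyrosine-based activation motifs (ITAMs). Lck phosphorylates the paired ITAM tyrosines, Zap70 or its relative Syk docks on them through tandem SH2 domains, and the docked kinase phosphorylates the adaptors LAT and SLP-76 (encoded by Lcp2). Mouse γδ TCRs are known to assemble mostly with CD3γ and CD3ε, and DETCs are resident γδ T cells of the epidermis that carry a single, canonical Vγ5Vδ1 receptor.

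The coding sequence of each ITAM is shown because it sets out what the chains compared below have in common and how many motifs each adds to the receptor. In the GENCODE vM21 annotation of GRCm38, which is reference sequence and not FVB/NJ sequence, Cd247 held 3 motifs and each of Cd3d, Cd3e, Cd3g and Fcer1g held 1. A motif was taken as tyrosine, 2 residues, leucine or isoleucine, 6 to 8 residues, and again tyrosine, 2 residues, leucine or isoleucine. In capitals are the codons of the paired tyrosines, and all 7 motifs cross an exon junction, so that the genomic span is longer than the sequence. The sequences run 5′ to 3′ on the coding strand.
Fcer1g, chr1:171229889-171230072, minus strand: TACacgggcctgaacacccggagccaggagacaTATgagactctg
Cd247 motif 1, chr1:165856451-165857454, plus strand: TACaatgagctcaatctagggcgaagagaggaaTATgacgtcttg
Cd247 motif 2, chr1:165858473-165859260, plus strand: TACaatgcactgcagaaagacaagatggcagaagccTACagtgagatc
Cd247 motif 3, chr1:165859819-165861042, plus strand: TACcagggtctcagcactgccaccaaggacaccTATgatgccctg
Cd3d, chr9:44986095-44986311, plus strand: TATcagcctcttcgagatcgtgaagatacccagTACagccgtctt
Cd3e, chr9:44999549-45000440, minus strand: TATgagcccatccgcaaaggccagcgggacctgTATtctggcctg
Cd3g, chr9:44970735-44971268, minus strand: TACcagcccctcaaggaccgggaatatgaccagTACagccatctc
The second motif of Cd247 had 11 codons between its tyrosines and the other 6 motifs had 10. The 164-residue ζ chain of transcript Cd247-201 and the 86-residue FcRγ chain of Fcer1g-201 therefore brought 3 and 1 motifs per chain. Cd3g, Cd3d and Cd3e lie next to each other at chr9:44969572-44980431, chr9:44981786-44987339 and chr9:44998740-45009627. Cd247 is at chr1:165788681-165877277, Fcer1g at chr1:171229572-171234365, Zap70 at chr1:36761798-36782818, Lck at chr4:129548344-129573641, Syk at chr13:52583173-52648792, Lat at chr7:126363824-126369570 and Lcp2 at chr11:34046920-34092295. All 10 are protein-coding, and Cd3e, Cd247, Lck and Lat each overlap 1 other annotated gene on the same strand.

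The libraries held 27272211 (isotype) and 32450957 (anti-Skint1) UMIs, with medians of 4077 and 3607.5 UMIs per DETC. They shared 5 cell barcodes, against 3.72 expected from their sizes. Levels are UMIs of a gene per 1000000 UMIs of a class (CPM), with an exact Poisson 95% interval in parentheses. These intervals and those of ratios and shares cover counting error only. The DETC gate carried Tcrg-V5 at 62.2 and 65.0 CPM, a gene no gate used, and keratin markers summed to 16.6 and 26.8 CPM. The αβ T gate carried Cd5 (91.2 and 81.3 CPM) and Cd6 (149 and 110 CPM), but also Trdc at 300 and 546 CPM. The ILC gate carried Kit (93.4 and 112 CPM) and Id2 (633 and 557 CPM), but Id2 was higher in the αβ T gate (822 and 849 CPM). In the ILC gate Ncr1, Klrb1c and Il1rl1, which mark subsets of such cells, were at 0 to 3.34 CPM. Eomes and Tbx21 were at 0 there in both libraries. The ILC gate also carried 5 keratin genes summing to 540 and 4242 CPM, and 8 Langerhans and myeloid genes summing to 1159 and 1770 CPM, most of it Cd74 (838 and 1158 CPM) despite the sort against MHC-II. The 7 mast cell and basophil markers were at 0 in every class. The ILC gate is therefore named for its rule, and its cells were mixed.

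All 3 CD3 chain genes were higher in DETCs than in αβ T cells. Cd3g, which encodes CD3γ, was at 9921 CPM (9868 to 9975) in isotype and 10031 CPM (9982 to 10080) in anti-Skint1 DETCs. In αβ T cells it was at 2436 CPM (2330 to 2547) and 2850 CPM (2737 to 2967). Cd3e, which encodes the ε chain shared by both CD3 dimers, was at 3876 and 4109 CPM in DETCs and at 944 (878 to 1014) and 995 CPM (928 to 1065) in αβ T cells. In both libraries each chain was higher in DETCs than in αβ T cells, by 4.07-fold and 3.52-fold for Cd3g and 4.11-fold and 4.13-fold for Cd3e. Cd3d, which encodes CD3δ, was at 2388 (2362 to 2414) and 2434 CPM (2409.5 to 2458) in DETCs and at 814 (753 to 879) and 876 CPM (814 to 942) in αβ T cells. Its ratio was the smallest of the CD3 chains, at 2.93-fold and 2.78-fold. The size of these differences depended on the αβ T gate, most in the anti-Skint1 library. There the log2 ratio of αβ T cells over DETCs, -2.05 for Cd3e and -1.82 for Cd3g, was -3.03 and -2.69 with at least 2 Trac UMIs and no Trdc asked of αβ T cells, and -1.41 and -1.29 with gates on thinned cells. That of Cd3d, -1.47, was -1.84 and -0.98 with the same gates, the latter under 2-fold.

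Cd3d accordingly took a smaller part of the CD3 mRNA in DETCs. Of the UMIs of the 3 CD3 chain genes, 14.8% (14.6 to 14.9, exact Clopper-Pearson interval) and 14.7% (14.5 to 14.8) were Cd3d in DETCs, and 19.4% (18.1 to 20.8) and 18.6% (17.4 to 19.8) in αβ T cells. The intervals of the classes did not overlap in either library. In αβ T cells without a Trdc UMI the Cd3d part was 19.5% and 21.4%, and in free RNA, the RNA of barcodes with 1 to 100 UMIs, it was 20.6% and 19.9%. The 3' counts of different genes need not be captured equally, so these parts are compared between classes and not read as proportions of protein chains.

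In the ILC gate the CD3 chains were limited by the gate itself and are only described. Cd3g was at 196 (152 to 248) and 147 CPM (118 to 181), with 67 and 88 UMIs, whereas Cd3d had 1 and 9 UMIs and Cd3e had 2 and 7. Cd3g thus made up 95.7% (88.0 to 99.1) and 84.6% (76.2 to 90.9) of the CD3 chain UMIs in the gate, against 63.5% and 63.1% in free RNA. Without the CD3 limit and with no Trdc UMI in its place, the gate held 142 and 212 cells. There Cd3g was at 722 and 560 CPM, Cd3e at 89.1 and 42.3 CPM, and Cd3d at 98.1 and 55.4 CPM, so that the order in which DETCs were highest and ILCs lowest was the same.

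**Figure D1:**
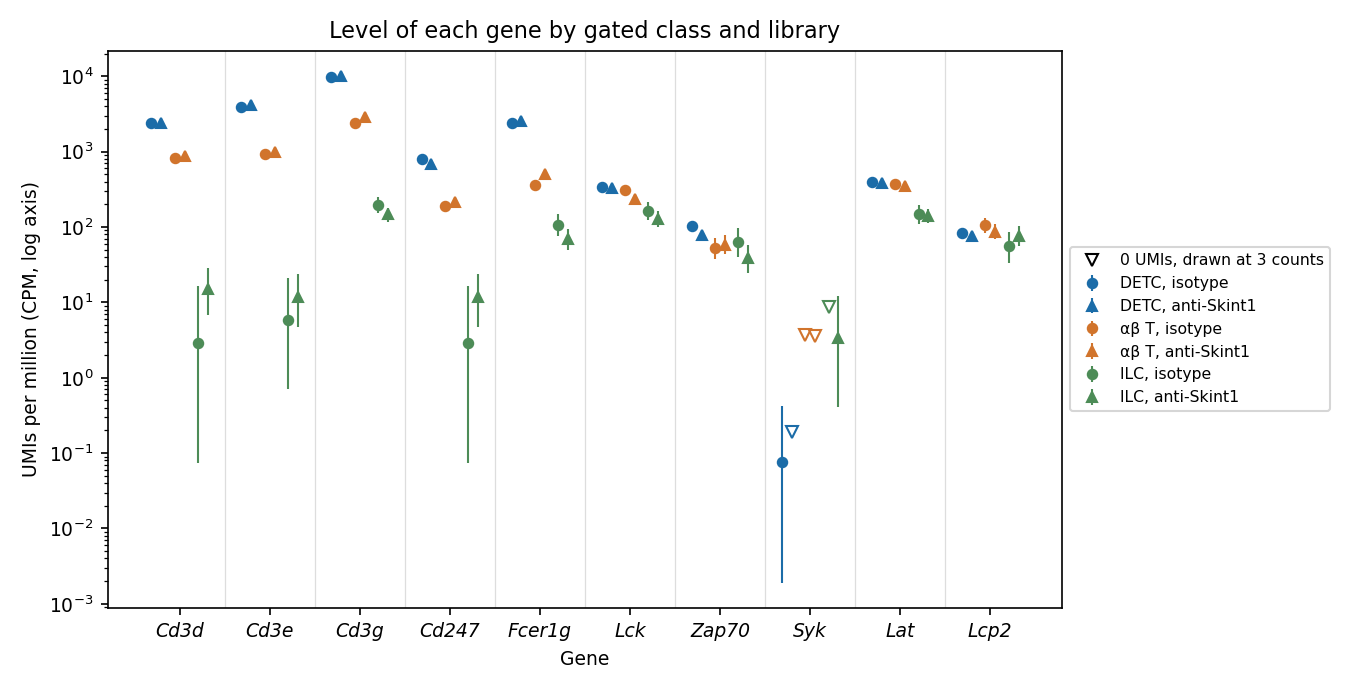
UMIs per 1000000 (CPM, log axis) of the 10 genes in the 3 gated classes (colours) of the isotype (circles) and anti-Skint1 (triangles) libraries, with exact Poisson 95% intervals for counting error and open triangles at 3 counts where a class had no UMI. Cd3d, Cd3e, Cd3g, Cd247 and Fcer1g step down from DETCs to αβ T cells to ILCs, Lck, Lat and Lcp2 lie closer together, and Syk is at or near 0 in every class.

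The homodimer chains followed the CD3 chains. Cd247 was at 801 (786 to 816) and 681 CPM (668 to 694) in DETCs, at 189 (160 to 221) and 213 CPM (183 to 246) in αβ T cells, and at 2.92 (0.0739 to 16.3) and 11.7 CPM (4.70 to 24.1) in ILCs, which was 1 and 7 UMIs. Fcer1g was at 2401 (2374 to 2427) and 2543 CPM (2518 to 2568) in DETCs, at 366 (325 to 410) and 509 CPM (462 to 560) in αβ T cells, and at 108 (76.0 to 149) and 68.5 CPM (49.2 to 93.0) in ILCs. DETCs were thus 4.25-fold and 3.20-fold above αβ T cells in Cd247 and 6.56-fold and 4.99-fold above them in Fcer1g, the largest class ratio among the members tested in both libraries. Over the alternatives, the log2 ratio of Fcer1g in the anti-Skint1 library ran from -6.24 to -1.45 and that of Cd247 from -2.76 to -1.23. Of the 5420 genes tested between these classes, 8.15% were at least 2-fold lower and 4.8% at least 2-fold higher in αβ T cells in both libraries. Of the 9 members tested, 5 were lower (Cd3d, Cd3e, Cd3g, Cd247 and Fcer1g) and 0 higher, and Syk was below the 20 CPM needed. The median log2 ratio of αβ T cells over DETCs was -1.55 and -1.47 over the 9 members and -0.11 and -0.15 over all genes tested.

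Between ILCs and DETCs, 11.4% of 5504 genes were at least 2-fold lower and 6.16% at least 2-fold higher in ILCs in both libraries. Of the 9 members tested, 7 were lower, 3 of them the CD3 chains that the gate limits, and the other 4 were Cd247, Fcer1g, Lck and Lat. Lck was just past 2-fold in the isotype library, at a log2 ratio of -1.04 (-1.45 to -0.67), and was under 2-fold there under 5 of 12 alternatives, with -0.86 the value nearest 0. With no upper limit on genes the ILC gate held 125 and 206 cells, with Lck at 40.1 and 30.6 CPM and Lat at 38.7 and 35.0 CPM. The log2 ratio of Cd247 was -8.10 (-13.4 to -5.62) and -5.86 (-7.18 to -4.82). Its size depended on the CD3 limit of the gate. Without that limit and with no Trdc UMI in its place, Cd247 was at 28.7 and 23.1 CPM in ILCs, at ratios of -4.80 and -4.88. The log2 ratio of Fcer1g was -4.47 (-4.98 to -4.01) and -5.21 (-5.69 to -4.77). A single barcode held 30 of the 37 Fcer1g UMIs of the isotype gate, and without barcodes that carried a myeloid or mast marker the isotype ratio was -7.63. Intervals of ratios are exact conditional binomial intervals at 95%.

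The balance of the homodimer chains is given as the Fcer1g share of Fcer1g and Cd247 UMIs. In isotype DETCs it was 75% (74.6 to 75.4) and in anti-Skint1 DETCs 78.9% (78.5 to 79.2), from 42242 and 51165 UMIs of the pair. The αβ T cells had 66.0% (61.4 to 70.4) and 70.5% (66.7 to 74.1), from 444 and 604 UMIs. The difference of αβ T cells minus DETCs was -9.0 points in the isotype library (-13.5 to -4.72, Newcombe's interval) and -8.35 points in the anti-Skint1 library (-12.1 to -4.84). The latter became -53.9 points with at least 2 Trac UMIs and no Trdc asked of αβ T cells, and -2.69 points with gates on thinned cells, so its size depends on the gate. In ILCs it was 97.4% (86.2 to 99.9) from 38 UMIs and 85.4% (72.2 to 93.9) from 48 UMIs. Of the 38 UMIs, 30 came from 1 barcode, and 4 barcodes held 68.3% of the 41 Fcer1g UMIs among the 48. The difference of ILCs minus DETCs in the isotype library, 22.4 points, was 5.01 points without barcodes that carried a myeloid or mast marker. Free RNA had 79.0% (78.1 to 79.9) and 80.4% (79.4 to 81.4), so a share near 80% in a class with few UMIs of the pair cannot be told apart from free RNA.

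**Figure D2:**
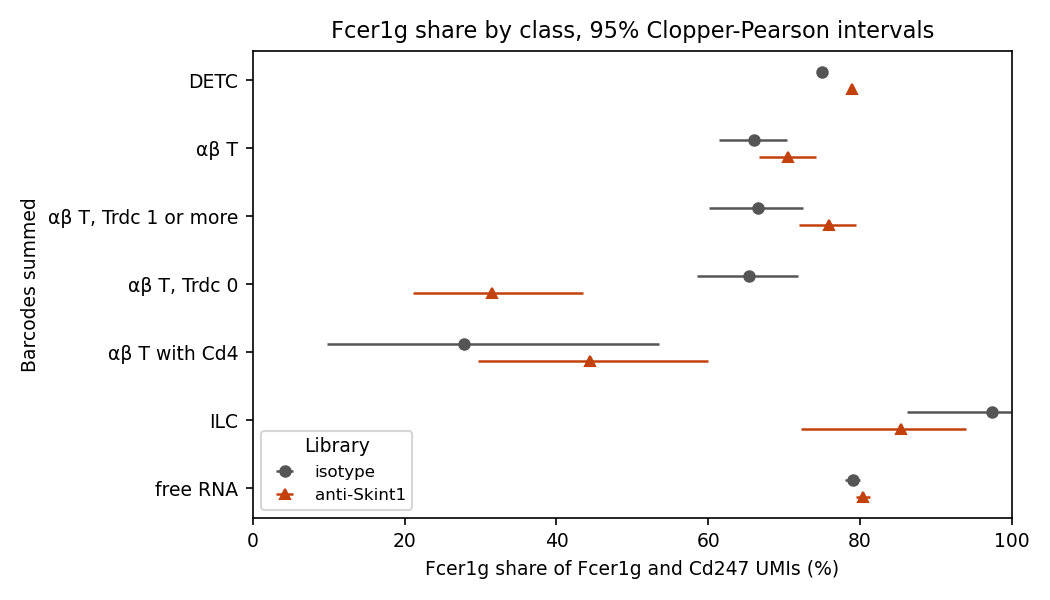
Fcer1g share of Fcer1g and Cd247 UMIs (x axis, percent) in classes and subsets of the isotype (grey) and anti-Skint1 (orange) libraries, with 95% Clopper-Pearson intervals for counting error. DETCs are at 75% and 78.9% with intervals narrower than the symbols, and αβ T cells without Trdc UMIs are at 65.4% in one library and 31.5% in the other.

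Single DETCs carried both chains. After each cell was thinned to 2000 UMIs, which left out 87 and 114 shallower DETCs, 97.9% and 98.7% of DETCs had an Fcer1g UMI and 76.6% (75 to 78.1) and 72.6% (71.2 to 74.0) had a Cd247 UMI. Without thinning, Fcer1g was seen in 99.3% and 99.5% and Cd247 in 91.9% and 87.4% of DETCs. Among thinned DETCs, 2290 of 3046 and 2898 of 4032 had both, 692 and 1082 only Fcer1g, 43 and 31 only Cd247, and 21 in each library neither. In DETCs with at least 4 UMIs of the pair, the median Fcer1g share was 75% and 80%, and the middle part of the cells, between the lower and upper quartile, lay between 63.6% and 87.5% (isotype) and between 69.0% and 90% (anti-Skint1). Cells in which Cd247 outnumbered Fcer1g were 151 of 2559 (5.90%) and 132 of 3419 (3.86%). The variance of the share over cells was 1.12 and 1.13 times that of binomial sampling at 1 common share.

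**Figure D3:**
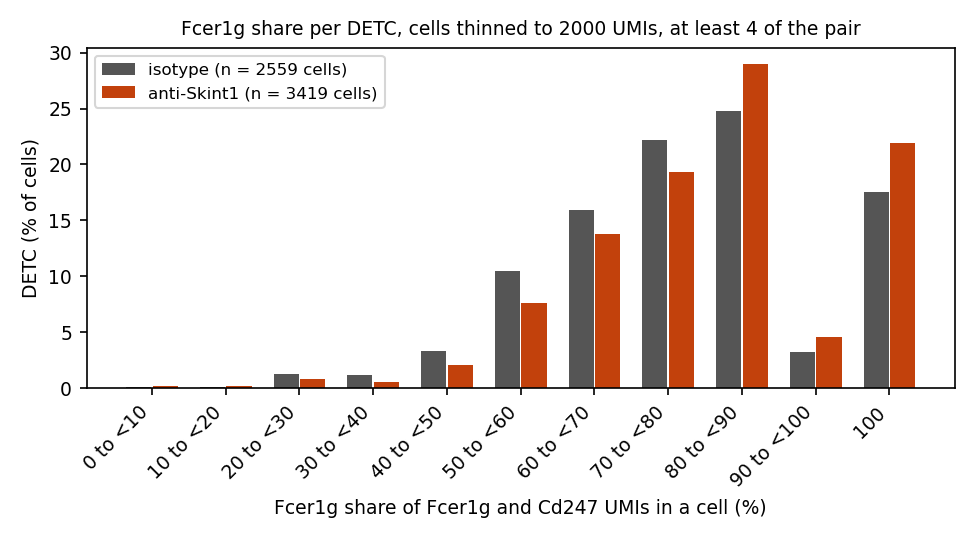
Percent of DETCs (y axis) by the Fcer1g share of their Fcer1g and Cd247 UMIs (x axis), in cells thinned to 2000 UMIs with at least 4 UMIs of the pair, for 2559 isotype (grey) and 3419 anti-Skint1 (orange) cells. The bars are highest from 80 to under 90 in both libraries, around medians of 75% and 80%, and cells with more Cd247 than Fcer1g are 5.90% and 3.86%. The bar at 100 holds cells in which no Cd247 UMI was drawn.

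Between treatments, the Fcer1g share in DETCs differed by 3.90 points (3.35 to 4.44), higher in the anti-Skint1 library. This came from lower Cd247, with a log2 ratio of anti-Skint1 over isotype of -0.23 (-0.27 to -0.20), and slightly higher Fcer1g, at 0.08 (0.06 to 0.10). DETCs of the anti-Skint1 library had fewer UMIs per cell, so the ratios were also taken within bands of depth, an alternative chosen after seeing the data. In DETCs of under 3000 UMIs, of 3000 to 5000 and of over 5000, the Cd247 ratio was -0.23 (-0.34 to -0.11), -0.25 (-0.30 to -0.19) and -0.20 (-0.28 to -0.13). The share differed by 3.24 (1.68 to 4.83), 3.64 (2.94 to 4.34) and 4.06 points (3.0 to 5.11) in the same bands. Of 5482 genes tested in DETCs, 5.56% had a lower ratio than Cd247. The treatment difference in αβ T cells, 4.54 points (-1.14 to 10.3), and that in ILCs, -12.0 points (-24.7 to 1.16), had intervals that included 0. In αβ T cells with no Trdc UMI the direction was the opposite, with 65.4% (58.6 to 71.8) in the isotype and 31.5% (21.1 to 43.4) in the anti-Skint1 library.

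Fcer1g in the αβ T gate sat in few barcodes. It had 0 UMIs in 156 of 197 and 155 of 213 barcodes and 1 UMI in 12 and 13, and 4 or more in 26 (13.2%, 8.81 to 18.7) and 41 (19.2%, 14.2 to 25.2), with only 3 and 4 barcodes at 2 or 3 UMIs. At 2000 UMIs per cell, 17.9% (12.7 to 24.1) and 25% (19.1 to 31.7) of αβ T cells had an Fcer1g UMI and 25.3% and 23.0% a Cd247 UMI, and without thinning 20.8% and 27.2% had Fcer1g and 35.0% and 39.9% Cd247. Thinning left out 7 and 17 αβ T cells. The 26 and 41 barcodes with at least 4 Fcer1g UMIs held 93.2% and 94.8% of the gate's Fcer1g UMIs. They were split off after the values had been seen and are described with no test. Their levels of genes that did not make the split were close to those of DETCs, with Cd3g at 7879 and 8718 CPM, Cd3e at 3443 and 3248 CPM, Cd3d at 2259 and 2370 CPM, and Cd247 at 753 and 666 CPM. The remaining 171 and 172 barcodes had Cd3g at 1469 and 1357 CPM, Cd3e at 500.1 and 421 CPM, Cd3d at 557 and 496 CPM, and Cd247 at 88.2 and 97.5 CPM. The kinases and adaptors differed less, with Lck at 348 and 312 against 302 and 216 CPM and Lat at 406 and 377 against 369 and 342 CPM. Zap70 was at 99.3 and 76.6 against 44.1 and 54.0 CPM and Lcp2 at 132 and 41.3 against 100.01 and 99.0 CPM, and for all 4 genes the intervals of the sets overlapped in both libraries. Such overlap does not show that the levels were equal. Fcer1g was at 29.4 and 33.0 CPM in the larger set and at 2259 and 2382 CPM in the smaller one, and its share was 25% and 25.3% against 75% and 78.1%. These Fcer1g levels and shares follow in large part from the split, which was made on Fcer1g, and nothing is read from them.

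Other genes also set the barcodes with Fcer1g apart from the rest of the αβ T gate. They carried Trdc at 1515 and 2376 CPM, in 13 of 26 and 40 of 41 barcodes, against 83.8 and 81.0 CPM in the remaining barcodes. DETCs were above both sets in Trdc, at 4840 and 3991 CPM. Cd7 was at 1986 and 2411 CPM in the barcodes with Fcer1g, against 61.8 and 75 CPM in the remaining ones and 2694 and 3154 CPM in DETCs. Tcrg-V5, at 62.2 and 65.0 CPM in DETCs, was at 0 and 17.7 CPM in the barcodes with Fcer1g, below DETCs in both libraries. Cd6 was at 0 in them in both libraries, against 175 and 138 CPM in the remaining barcodes. Cd5 was at 0 and 29.5 CPM in them, against 107 and 94.5 CPM. The doublet scores marked 0 and 4 of the barcodes with Fcer1g. The part of doublets in these values was not tested beyond these scores. In the isotype library, 13 of the 158 αβ T barcodes without Trdc (8.23%, 4.45 to 13.7) had at least 4 Fcer1g UMIs, and in the anti-Skint1 library 1 of 156 did (0.641%, 0.0162 to 3.52). Of those 13 barcodes, 11 had at least 2 Trac UMIs, and they carried Cd3g at 6455 CPM, Trbc2 at 2489 CPM and Cd8b1 at 62.2 CPM, with no Cd4 or Cd8a UMI. Cd8b1 rested on fewer UMIs there than Zap70, which had 7. Trbc1 was at 793 CPM in them, below the other isotype αβ T barcodes without Trdc (1167 CPM) and isotype DETCs (1508 CPM). Trbc2 was at 1138 and 1118 CPM in the latter 2 sets. The Fcer1g share in all αβ T cells without Trdc was 65.4% (58.6 to 71.8) in the isotype and 31.5% (21.1 to 43.4) in the anti-Skint1 library. Barcodes with at least 4 Fcer1g UMIs held 89.9% and 26.1% of the Fcer1g UMIs of these cells. With a gate of at least 2 Trac UMIs and no Trdc, which held 102 and 77 cells, Fcer1g was at 279 and 33.6 CPM, Cd247 at 125 and 101 CPM and Cd3g at 2214 and 1556 CPM, and 5 members were at least 2-fold below DETCs in both libraries, beside 10.1% of all genes tested with that gate.

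**Figure D4:**
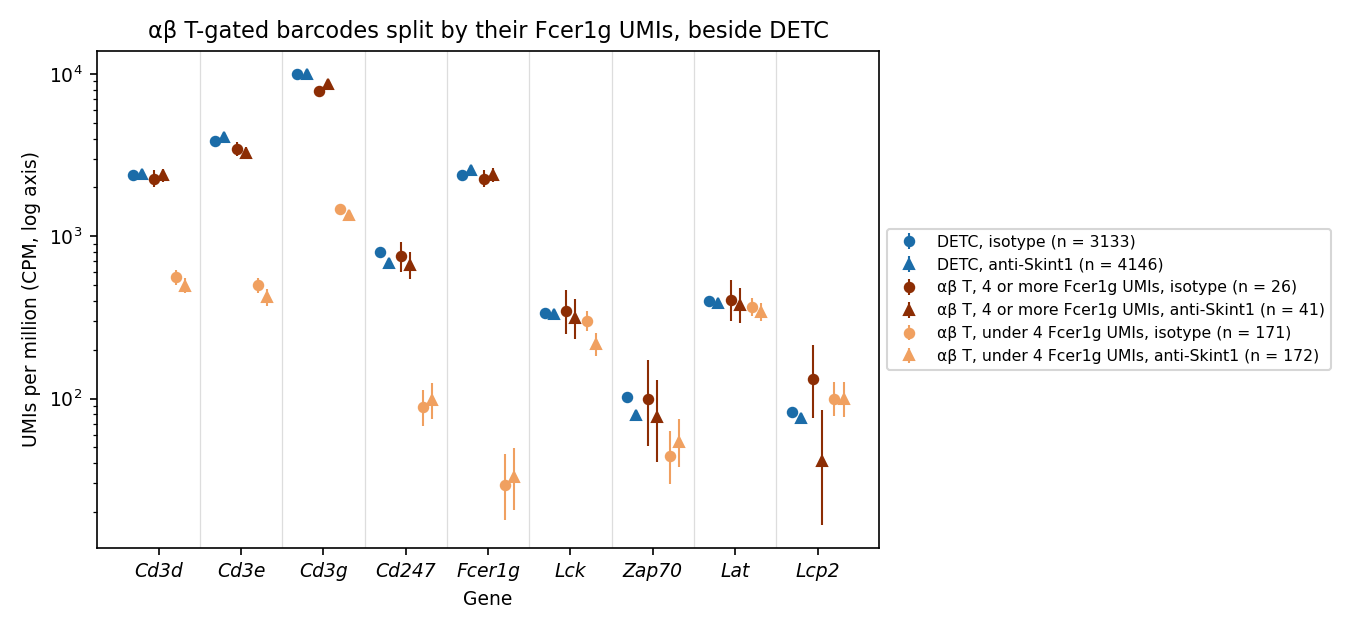
UMIs per 1000000 (CPM, log axis) of 9 genes in DETCs (blue) and in barcodes of the αβ T gate with at least 4 (brown) or under 4 (light orange) Fcer1g UMIs, for the isotype (circles) and anti-Skint1 (triangles) libraries with exact Poisson 95% intervals. The split used Fcer1g alone. The brown symbols of Cd3d, Cd3e, Cd3g and Cd247 lie near DETCs and the light ones lie below. The intervals of the αβ T sets overlap for Lck, Zap70, Lat and Lcp2, which does not show that their levels are equal.

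In the ILC gate 1 barcode held 30 of the 37 Fcer1g UMIs of the isotype library, and 4 barcodes held 68.3% of the 41 UMIs of the anti-Skint1 library. None of these 5 barcodes had a Cd247 UMI. Without barcodes that carried a UMI of a mast, basophil, Langerhans or myeloid marker other than Cd74, Fcer1g in ILCs was at 12.1 and 49.3 CPM. Lck and Lat were then at 170 and 136 CPM and at 155 and 150 CPM, close to their levels in the whole gate. In keratinocyte-gated barcodes, 4 and 17 in number, Fcer1g had 0 and 1 UMIs and Cd247 had none.

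Lck, the Src family kinase that phosphorylates the ITAMs, differed less between the classes. It was at 337 (327 to 347) and 333 CPM (324 to 342) in DETCs, at 308 (271 to 349) and 236 CPM (204 to 271) in αβ T cells, and at 163 (123 to 212) and 129 CPM (102 to 161) in ILCs. The αβ T and DETC intervals overlapped in the isotype library and did not in the anti-Skint1 library, and ILCs were lowest in both. At 2000 UMIs per cell, a Lck UMI was seen in 48.4% and 48.6% of DETCs, 48.9% and 36.2% of αβ T cells and 35.3% and 23.6% of ILCs, against 0 of 3 and 0 of 17 keratinocyte-gated barcodes, with an upper Clopper-Pearson bound of 19.5% in the latter. Without thinning the share was 73.3% and 69.9% in DETCs, 68.5% and 62.0% in αβ T cells and 53.4% and 45.6% in ILCs.

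Zap70 was the only Syk family kinase with more than a trace of mRNA in these cells. It was at 102 (97.1 to 108) and 79.5 CPM (75.2 to 84.0) in DETCs, at 52.5 (37.8 to 70.9) and 58.6 CPM (43.3 to 77.4) in αβ T cells, and at 64.2 (40.2 to 97.2) and 38.4 CPM (24.4 to 57.7) in ILCs. The log2 ratio of αβ T cells over DETCs was -0.97 (-1.45 to -0.52) and -0.44 (-0.88 to -0.03), under 2-fold in both libraries, and the αβ T and ILC intervals overlapped in both. Syk had 1 UMI over all isotype DETCs, or 0.0758 CPM (0.00192 to 0.422), and 0 over all anti-Skint1 DETCs, where 3 counts, taken here as the limit that a count of 0 allows, would be 0.189 CPM. αβ T cells had 0 Syk UMIs in both libraries, with limits at 3 counts of 3.75 and 3.59 CPM. ILCs had 0 and 2.

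The Syk share of Syk and Zap70 UMIs in DETCs was 0.0739% (0.00187 to 0.411) of 1353 UMIs and 0 of 1262 UMIs, with an upper bound of 0.292%. In αβ T cells it was 0 of 42 and 0 of 49 UMIs, with upper bounds of 8.41% and 7.25%, and in ILCs 0 of 22 and 2 of 25 UMIs, or 8.0% (0.984 to 26). Free RNA had 2 of 281 and 3 of 191 UMIs, or 0.712% (0.0863 to 2.55) and 1.57% (0.325 to 4.52). The pairs of homologous genes thus differed in their balance in DETCs, with FcRγ mRNA counted more often than ζ mRNA and Zap70 mRNA almost to the exclusion of Syk.

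Zap70 had the lowest treatment ratio of the members in DETCs. Its log2 ratio was -0.37 (-0.48 to -0.25), and 1.13% of the 5482 genes tested had a lower one. In the bands of under 3000, 3000 to 5000 and over 5000 UMIs the ratio was -0.69 (-1.02 to -0.36), -0.32 (-0.47 to -0.18) and -0.31 (-0.52 to -0.09). A Zap70 UMI was seen in 18.1% (16.7 to 19.5) and 14.7% (13.7 to 15.9) of thinned DETCs, and in 33.6% and 25.1% without thinning. Lck was nearly equal in DETCs of the libraries, at a ratio of -0.02 (-0.08 to 0.04).

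Neither adaptor differed by as much as 2-fold between DETCs and αβ T cells. Lat, the membrane scaffold on which the kinases build the signalling complex, was at 399 (389 to 410) and 387 CPM (378 to 397) in DETCs and at 375 (333 to 420) and 349 CPM (310 to 392) in αβ T cells, with overlapping intervals in both libraries. In ILCs it was at 149 (110.8 to 196) and 142 CPM (113 to 176), and its log2 ratio to DETCs was -1.42 (-1.85 to -1.03) and -1.45 (-1.77 to -1.14). Lcp2, whose product SLP-76 joins LAT to Vav and phospholipase Cγ, was at 82.3 (77.5 to 87.3) and 75.9 CPM (71.6 to 80.3) in DETCs, at 105 (83.7 to 130) and 87.3 CPM (68.4 to 110) in αβ T cells, and at 55.4 (33.4 to 86.6) and 76.9 CPM (56.3 to 103) in ILCs. With the stated gates Lcp2 had the only ratio of αβ T cells over DETCs above 0, at 0.35 (0.01 to 0.67) and 0.20 (-0.16 to 0.54), the second of which was within counting error. The second kept its sign under 9 of 10 alternatives, with -0.00023 the lowest value. The ratio of Lat kept its sign under 8 of 10 alternatives in each library, and ran up to 0.185 and 0.117. For ILCs over αβ T cells the log2 ratio of Lcp2 was -0.92 (-1.72 to -0.19) in the isotype and -0.18 (-0.75 to 0.37) in the anti-Skint1 library. For ILCs over DETCs it was -0.57 (-1.31 to 0.08) and 0.02 (-0.44 to 0.44). The ratios thus put αβ T cells highest in the isotype library alone. No order could be set in the anti-Skint1 library, where all 3 intervals included 0.

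In DETCs, 0.365% of the 5482 genes tested differed by at least 1.5-fold between treatments, and 0 of the 9 members tested did. The ratios of the CD3 chains were 0.03 (0.01 to 0.05) for Cd3d, 0.08 (0.07 to 0.10) for Cd3e and 0.02 (0.01 to 0.03) for Cd3g. In DETCs of 3000 to 5000 UMIs that of Cd3g was -0.02 (-0.03 to -0.0024), the opposite direction. The ratios of the adaptors were -0.04 (-0.10 to 0.01) for Lat and -0.12 (-0.24 to 0.00) for Lcp2. Those of Cd3d, Cd3g, Lck and Lat changed sign under 1 or 2 of 12 alternatives. The median over the members was -0.02 and that over all genes was -0.03. Zap70 and Cd247 were thus the members farthest from the median, each by less than 1.5-fold.

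**Figure D5:**
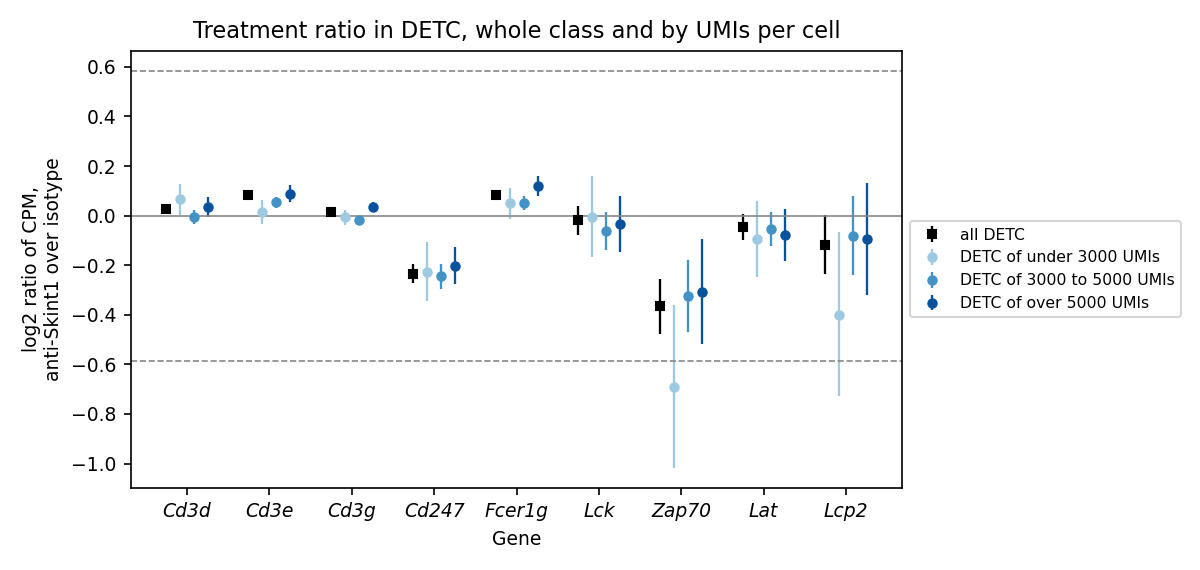
Log2 ratio of CPM, anti-Skint1 over isotype (y axis), for 9 genes in all DETCs (black) and in DETCs in bands of UMIs per cell (blue shades), with exact conditional binomial 95% intervals. Dashed lines mark 1.5-fold. Cd247 and Zap70 are below 0 in every band, and Zap70 passes the line only in DETCs of under 3000 UMIs, at -0.69.

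Among αβ T cells, 13.1% of 5177 genes and 0 of the 9 members tested passed 1.5-fold. Fcer1g had the highest ratio, 0.48 (0.26 to 0.70), beside the 13.2% and 19.2% of barcodes with at least 4 Fcer1g UMIs described above. With at least 2 Trac UMIs and no Trdc, its ratio was -3.05, the opposite direction, and the ratios of Cd3d, Cd3e, Cd3g and Cd247, above 0 with the stated gate, were -0.13, -0.78, -0.51 and -0.31. Lck had the lowest ratio, -0.39 (-0.67 to -0.11). In ILCs, 25.5% of 5209 genes and 2 of the 6 members tested passed it. These were Fcer1g at -0.66 (-1.33 to 0.03) and Zap70 at -0.74 (-1.65 to 0.17), whose intervals included 0. The barcode with 30 of the 37 isotype UMIs entered the Fcer1g ratio, which was 2.02, the opposite direction, without barcodes that carried a myeloid or mast marker.

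Within DETCs, the members were compared between states defined by other genes. Proliferating DETCs, with at least 2 UMIs of Mki67, Top2a, Cdk1, Ccnb2 and Birc5, were 77 and 75 cells. Of 5605 genes, 9.99% differed by at least 1.5-fold in both libraries between them and other DETCs, and 0 of the 9 members tested did. Cd3e was lower in them at log2 ratios of -0.27 (-0.35 to -0.19) and -0.32 (-0.40 to -0.25), and Fcer1g at -0.29 (-0.39 to -0.19) and -0.23 (-0.32 to -0.13). Lat was at -0.43 (-0.70 to -0.18) and -0.40 (-0.67 to -0.15), while Lcp2 was at 0.36 (-0.11 to 0.79) in one library and -1.0 (-1.82 to -0.30) in the other. The Fcer1g share was 73.3% and 77.1% in proliferating DETCs and 75% and 78.9% in the others. Proliferation genes were counted without thinning, so deeper cells met the limit more easily. From DETCs of under 3000 to those of over 5000 UMIs, Cd3e fell from 4371 to 3469 CPM (isotype) and from 4416 to 3690 CPM (anti-Skint1). Lat fell from 433 to 369 and from 405 to 350 CPM, and Fcer1g from 2499 to 2232 and from 2588 to 2425 CPM. The Fcer1g share fell from 76.8% to 74.0% and from 80.0% to 78.0%. The part of depth in the ratios of proliferating DETCs was not tested.

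DETCs were also divided by their UMIs of the immediate early genes Fos, Fosb, Jun, Junb, Egr1 and Nr4a1, some of which TCR signalling is known to induce. After thinning, the upper 25% and the lower 25%, ties included, held 769 and 822 isotype cells and 1062 and 1015 anti-Skint1 cells. Of 5536 genes, 13.1% differed by at least 1.5-fold in both libraries, and again 0 of the 9 members did. Lck was at -0.32 (-0.44 to -0.20) and -0.38 (-0.49 to -0.27) and Cd3d at -0.21 (-0.25 to -0.16) and -0.22 (-0.26 to -0.18) in the upper set, beside medians over all genes of -0.21 and -0.20. The Fcer1g share was 74.5% and 79.0% in the upper and 74.8% and 78.8% in the lower set.

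A list of 45 further genes of TCR signalling was examined beside the members. In DETCs, 30 of them were tested between treatments and 1 passed 1.5-fold, beside 0.365% of the 5482 genes tested. This was Ptpn6, which encodes the phosphatase SHP-1 that restrains proximal TCR signalling. It was at 158 CPM in isotype and 73.3 CPM in anti-Skint1 DETCs, a log2 ratio of -1.11 (-1.21 to -1.0). In αβ T cells it was at 63.7 and 72.9 CPM.

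Between αβ T cells and DETCs, 34 of the 45 were tested, of which 3 were at least 2-fold higher and 7 at least 2-fold lower in αβ T cells in both libraries, beside 4.8% and 8.15% of all genes. The 3 higher were Cd5, a receptor that dampens TCR signals, at 0.152 and 0.189 CPM in DETCs against 91.2 and 81.3 CPM, Sla, which encodes an adaptor that promotes TCR degradation, at 0.758 and 0.504 against 51.2 and 28.7 CPM, and Rasgrp1, a Ras activator, at 22.0 and 18.9 against 150 and 114 CPM. Among the 7 lower were Trat1, an adaptor bound to the TCR complex, at 1192 and 1126 CPM in DETCs against 254 and 257 CPM, Themis, which binds SHP-1 and Grb2, at 167 and 177 against 45 and 56.2 CPM, and Sla2, at 97.2 and 89.8 against 23.7 and 35.9 CPM. Grap2, Plcg1, Bcl10 and Tec were the others. The related adaptor genes Sla and Sla2 thus stood in opposite order, with Sla2 the higher in DETCs and Sla counted in αβ T cells. The median log2 ratio over the list was -0.37 and -0.33.

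Between ILCs and DETCs, 32 were tested, with 4 at least 2-fold higher and 13 at least 2-fold lower in both libraries, beside 6.16% and 11.4% of all genes. Higher were Tyrobp, the ITAM adaptor DAP12 of natural killer and myeloid receptors, at 96.3 and 53.5 CPM against 5.84 and 6.87 CPM in DETCs, Ubash3b, at 123 and 71.9 against 20.5 and 17.2 CPM, Rasgrp1, at 163 and 140 CPM, and Csk. Tyrobp had 0 UMIs in αβ T cells of both libraries. Lower were 7 adaptors, among them Trat1 with 0 and 5 UMIs and Themis with 0 and 1 UMIs in ILCs, and also Ptprc, Pag1, Plcg1, Malt1, Bcl10 and Ptpn6. The median over the list was -0.76 and -1.01. How much of these differences came from the keratin and myeloid transcripts in the ILC gate was not tested.

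The genes whose levels over the 6 sums of class and library followed Fcer1g most closely were Gpr141, Cd160, Gstm5, Rasl11b and Pitpnm2, at Euclidean distances of 0.496 to 0.738 on centred log2(CPM + 1) among 2689 genes at 50 CPM or more. Gpr141 was at 156 and 170 CPM in DETCs, 23.7 and 31.1 CPM in αβ T cells and 8.75 and 5.01 CPM in ILCs. Cd160, an activating and inhibitory receptor of cytotoxic lymphocytes, was at 139 and 128, 22.5 and 33.5, and 5.84 and 5.01 CPM in the same order. The likeness is over 6 sums from 2 libraries and is given as a description. No such genes are named for Syk, which was itself under 50 CPM.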

How the data were processed

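Single-cell RNA was measured in 2 libraries (10x 3' v3 chemistry), 1 per treatment. The authors made the deposited UMI counts with CellRanger 3.0.2 on mm10 (GRCm38), and no normalization had been applied to them or barcode left out. Cells were barcodes of 500 to 2500 genes in which mitochondrial genes took no more than 12% of UMIs, gated as stated above, and UMIs were summed per class and library. The cells in no class, 839 and 1477, were not analysed. Genes with a mean of at least 20 CPM over the sums compared were tested against a fold, of 1.5 between treatments and states and of 2, in the same direction in both libraries, between classes. Ratios carry no pseudocount. Scrublet (scanpy 1.11.5) marked 1 and 0 doublets by its own threshold, so doublets were kept and, as an alternative, the 177 and 330 highest scores were left out. The ratio and share code was tested on simulated data. Python 3.11.15, numpy 2.4.6, scipy 1.17.1 and pandas 2.3.3 were used. Gene IDs matched GENCODE vM21 for 30934 of 31053 genes. The members and lists were chosen with earlier results of these data known. Besides the members, the text names markers of the gates, genes nearest to Fcer1g, and from the list of 45 the genes past the fold, with values for at most 12 by size. One further gate is not reported here.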

Additional observations from a re-analysis of the deposited data

How the results depend on the processing

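No paired analysis was possible because each treatment had 1 library. No library was left out, for the same reason, and the limits are counting error and the purity of the αβ T and ILC gates. The direction of the treatment ratio of Cd247 and Zap70 in DETCs and the class ratios of Cd247 and Fcer1g were the same under every alternative run for them. The members at least 2-fold lower numbered 4 or 5 in αβ T cells (reported 5), beside 5.43% to 10.1% of all genes, and 6 to 9 in ILCs (reported 7), 3 of them the CD3 chains, which the ILC gate as stated limits, so that this count is not set against all genes. Scaling cancels in shares. The cause of the values that follow was not tested.

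Members past 1.5-fold between treatments in ILCs, 2, beside 25.5% of all genes, became 5 with at most 5% mitochondrial UMIs (beside 68.3%, with 15 and 17 cells left in the gate). They became 1 with no upper limit on genes (7.4%) or with median-of-ratios scaling (24.8%), and 0 at 2-fold (9.25%). With no Trdc UMI allowed in the gate they became 4, both without the CD3 limit (14.8%) and with it (28.7%). Wherever the CD3 limit was left out, no Trdc UMI was allowed in its place, so both changes were made together. In αβ T cells the count of 0, beside 13.1%, became 1 with no upper limit on genes (12.3%) or with gates on thinned cells (17.8%), and 2 (Cd3e and Fcer1g) with at least 2 Trac UMIs and no Trdc (28.0%). In DETCs it became 1 (Zap70) in cells of under 3000 UMIs, beside 4.53% of all genes, where the treatment difference of the Fcer1g share was 3.24 points. For proliferating DETCs it became 1 at 4 or more UMIs of the proliferation genes, beside 20.1%. The Fcer1g share of ILCs minus DETCs, 22.4 points in the isotype library, became 25.2 with at most 5% mitochondrial UMIs, 6.57 without the CD3 limit, 5.01 without myeloid or mast markers and 7.47 with gates on thinned cells. In the anti-Skint1 library it was 6.53, and became 21.3 with at most 5% mitochondrial UMIs and -8.37 without the CD3 limit. That of αβ T cells minus DETCs in the anti-Skint1 library, -8.35, became -14.2 with at most 5% mitochondrial UMIs, -53.9 with at least 2 Trac UMIs and no Trdc, and -2.69 with gates on thinned cells. The Syk share became 0 in isotype DETCs and in anti-Skint1 ILCs with at most 5% mitochondrial UMIs, and 0 in isotype DETCs with gates on thinned cells. Treatment ratios in ILCs changed sign for Cd3e (1.0 to -0.60) with at most 5% mitochondrial UMIs, for Cd3d (2.37 to -0.086) with no upper limit on genes, for Cd3d (-0.83), Cd3e (-1.08) and Cd247 (2.0 to -0.31) without the CD3 limit, for Fcer1g (-0.66 to 2.02) without myeloid or mast markers, and for Cd3d (-0.67), Cd3e (-0.37) and Cd247 (-0.73) with gates on thinned cells. Other ratios, all under 1.5-fold as reported, also turned, that of Lat in ILCs (-0.07, up to 0.095) under 4 of 10 alternatives, and in αβ T cells those of Cd3d, Cd3e, Cd247 and Fcer1g under 2 of 8, of Cd3g under 1, and of Zap70 and Lat under 3. In DETCs those of Cd3d (0.03, as low as -0.0043) and Lat (-0.04, up to 0.0037) turned under 1 of 12, and those of Cd3g (0.02, as low as -0.016) and Lck (-0.02, up to 0.0069) under 2.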

Other observations

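αβ T cells with a Cd4 UMI, 50 and 51 cells, had an Fcer1g share of 27.8% (9.69 to 53.5) of 18 UMIs and 44.4% (29.6 to 60) of 45 UMIs. Those with a Cd8a or Cd8b1 UMI, 25 and 17 cells, had 73.2% (62.2 to 82.4) of 82 UMIs and 60% (26.2 to 87.8) of 10 UMIs. Those with a Foxp3 UMI, 17 and 12 cells, had 10% (0.253 to 44.5) of 10 UMIs and 70.4% (49.8 to 86.2) of 27 UMIs. The part of the few barcodes with many Fcer1g UMIs in these shares was not tested.

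Barcodes that met the DETC gate with over 2500 genes, left out of the classes, were 297 and 250. Their Fcer1g share was 71.9% (70.9 to 72.9) and 75.3% (74.2 to 76.3), below that of DETCs within the limit in both libraries, and 2 of 287 and 1 of 212 UMIs of Syk and Zap70 were Syk.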
